A study of Mus musculus with 8 samples.

Results

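TRPC channels (canonical transient receptor potential channels) were examined in dorsal and ventral medial entorhinal cortex (MEC) through 5 genes of the family, *Trpc1*, *Trpc4*, *Trpc5*, *Trpc6* and *Trpc7*. They were taken by gene symbol from a table of 38553 genes, and 5 of the 5 were found. Other genes of the family were not analysed here. The samples were 4 dorsal and 4 ventral RNA-Seq libraries from untreated male C57Bl/6JolaHsd mice aged 8 weeks. The 13 mice formed 4 groups of 3 or 4, and within each the dorsal pieces were combined, as were the ventral ones, after microdissection from 1 sagittal slice (400 µm) of the right hemisphere. Each library is thus a pool of several mice and of every cell type in the dissected piece, and p-values measure the spread between pools.

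TRPC proteins assemble in fours, as homomers or heteromers, into non-selective cation channels that pass sodium and calcium and depolarize the cell. They open downstream of receptors that activate phospholipase C, which splits a membrane lipid into inositol trisphosphate and diacylglycerol. TRPC1, TRPC4 and TRPC5 form a subgroup whose members assemble with each other, while TRPC6 and TRPC7 belong to the subgroup that diacylglycerol activates directly. In entorhinal neurons, muscarinic activation evokes a calcium-dependent cation current that sustains firing after a stimulus has ended, and TRPC channels have been proposed to carry part of it. Dorsoventral comparison asks whether the genes behind such currents are graded along the axis on which the scale of grid firing fields changes.

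Expression is given as FPKM, the number of sequenced fragments scaled to transcript length and to library size, as the authors obtained it from Cuffdiff 2. The headers of the columns name a region by a letter, but the 4 columns headed D1, V1, D2 and V2 average to the dorsal value of the authors' comparison table and D3, V3, D4 and V4 to the ventral value. Within 0.1%, this held for 21861 of the 21876 genes with both values above 0, whereas the next best of the 70 possible assignments held for 1273. Libraries are therefore placed in the regions of that table and named by their headers. For 4 of the 8 libraries the header names the other region, and the placement rests on this match of values and not on a label. Depth relative to the other libraries, estimated indirectly from the FPKM of genes near 0, lay between 0.924 and 1.08. Absolute depth was not used here. Markers of glutamatergic neurons summed to between 553 and 705 FPKM dorsally and between 568 and 732 ventrally, with *Slc17a7*, the vesicular glutamate transporter of cortical excitatory cells, at a mean of 107 and 105. Of these 5 markers *Slc17a6* was called, as D>V. All 6 oligodendrocyte markers fell ventrally, their sum lying between 808 and 1074 FPKM in dorsal and between 447 and 586 in ventral libraries. Among 6 markers of GABAergic neurons, *Pvalb* was D>V (15.7 and 6.63 FPKM) and *Sst* was V>D (109 and 220 FPKM), whereas *Gad1*, *Gad2*, *Slc32a1* and *Vip* were not called. None of the 5 astrocyte, 4 microglial and 4 endothelial markers was called by limma. Summed astrocyte markers nevertheless did not overlap between regions (154 to 164 FPKM dorsally, 171 to 185 ventrally). Nor did those of microglial (32.9 to 34.9 and 36.5 to 40.1 FPKM) or GABAergic markers (231 to 301 and 308 to 398 FPKM). *Sst* was the largest term of the GABAergic sum, which therefore does not describe these markers as a class. Of the 6 GABAergic markers, 4 had a log2 fold change above 0 and 2 below 0. Of all single genes compared below, 11.1% did not overlap. Of 3 tested markers of dentate gyrus and CA1, *Wfs1*, which MEC layer II also expresses, was D>V (76.6 and 52.5 FPKM). *Fibcd1* was V>D, with 0.641 FPKM dorsally and 2.52 ventrally (adjusted p = 0.00296, limma). *Prox1*, also tested, was expressed in both regions (4.48 FPKM dorsally, 3.49 ventrally) and was not called (adjusted p = 0.177, limma). The granule cell marker *Dsp* did not enter the test and was near 0 (0.0919 and 0.0256 FPKM). Whether the pieces held hippocampal tissue was not tested. The part of cell type proportions in the differences given here was not tested, and in bulk tissue fewer cells of a type and less RNA per cell cannot be told apart.

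All 5 genes passed the authors' flag for sufficient alignments, and their levels had the same order in 8 of 8 libraries. *Trpc5* was the highest, with 17.9 ± 2.27 FPKM (SD, n = 8), above 75.1% of the genes so flagged. *Trpc1*, which often acts as a partner subunit, followed with 13.3 ± 0.967 FPKM (SD, n = 8), and *Trpc4* with 8.06 ± 1.37 FPKM (SD, n = 8). *Trpc6* reached 1.96 ± 0.381 FPKM (SD, n = 8) and *Trpc7* 0.630 ± 0.236 FPKM (SD, n = 8), the latter above 1.33% of these genes. FPKM is a level per length, so the genes can be set side by side. Within a region, no neighbours in this order overlapped. In ventral MEC the lowest *Trpc5* library had 14.8 FPKM and the highest *Trpc1* library 13.5 FPKM. Over both regions together, the ranges of *Trpc5* (14.8 to 20.2 FPKM) and *Trpc1* (11.9 to 14.8 FPKM) met.

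The regions were compared with limma on log2(FPKM + 1), over the 13674 genes that passed this flag and averaged 1 FPKM or more. A gene was called D>V or V>D at an adjusted p under 0.05, by the Benjamini-Hochberg method over all these genes, together with at least 20% more expression in that region. This called 3.6% of all genes, 2.15% as D>V and 1.45% as V>D. Of the 5 TRPC genes, 4 were tested. *Trpc4* was V>D, *Trpc5* was D>V, and *Trpc1* and *Trpc6* were not called. *Trpc7* lay below the FPKM limit. With libraries placed by their headers instead, *Trpc4* and *Trpc5* were not called, with log2 fold changes of −0.01 and 0.01. In the 4 libraries whose header and placement match, D1, D2, V3 and V4, the values were 0.38 and −0.29, close to those of all 8 libraries, and with 2 libraries a region 0 genes were called by limma, although 1240 had an unadjusted p under 0.05. Dorsal and ventral libraries did not overlap for 2 of the 4 tested genes, *Trpc4* and *Trpc5*, nor for *Trpc7*. Among all genes tested 11.1% did not overlap, 6.17% as D>V and 4.95% as V>D.

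**Figure D1:**
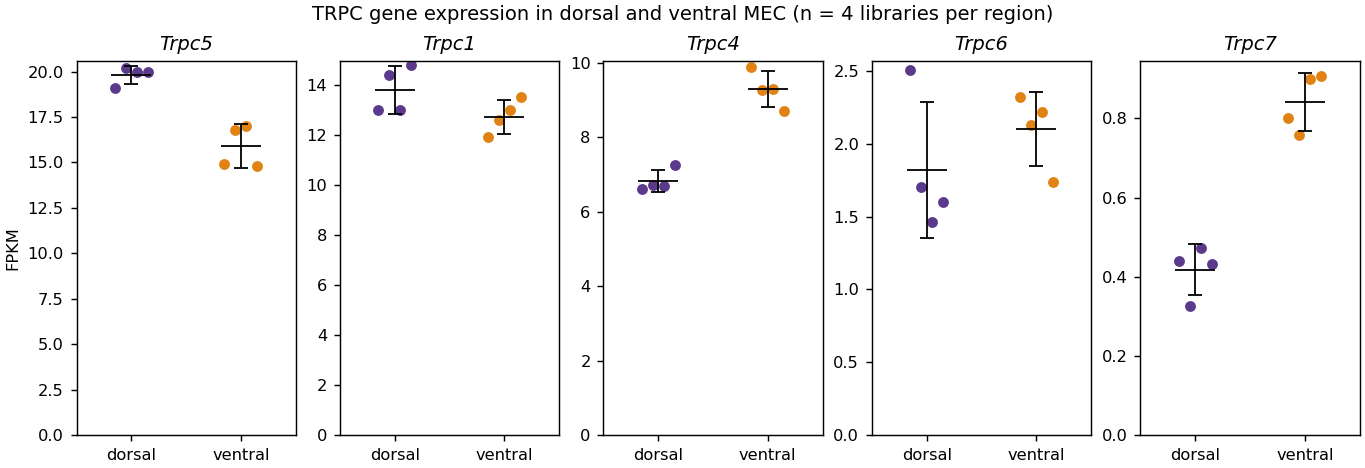
FPKM (vertical axes, each from 0 and with a scale of its own) of 5 TRPC genes in dorsal and ventral MEC, ordered by level. Points are the 4 libraries of a region, and bars give the mean and SD. The regions are apart for Trpc5, which was higher dorsally, and for Trpc4 and Trpc7, which were higher ventrally, and they overlap for Trpc1 and Trpc6.

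*Trpc4* (ENSMUSG00000027748) encodes a channel subunit that responds to receptors coupled to Gq and to Gi proteins. It lies on the forward strand of chromosome 3 from 54156035 to 54318471 in GENCODE M21, on build GRCm38, the build of the deposited files. No exon of another gene overlaps its exons, whose union is 8032 bases long. Its FPKM was 6.62, 6.72, 6.70 and 7.26 in the dorsal libraries headed D1, V1, D2 and V2. In the ventral libraries headed D3, V3, D4 and V4 it was 9.88, 9.27, 9.30 and 8.70. The highest dorsal library, V2, stood apart from the other 3 dorsal ones and was still 1.44 FPKM below the lowest ventral library. The regional means were 6.83 ± 0.292 FPKM (SD, n = 4) and 9.29 ± 0.483 FPKM (SD, n = 4), so that ventral expression was 1.36-fold that of dorsal MEC. The log2 fold change of the model was 0.39 (standard error 0.07, 95% interval 0.25 to 0.54, adjusted p = 0.0102, limma). This change was larger in size than that of 94.1% of all genes tested. The call was kept in 8 of 8 fits that each left out 1 library, with adjusted p-values from limma between 0.0173 and 0.0421.

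*Trpc5* (ENSMUSG00000041710) encodes the closest relative of TRPC4, and its channel is strongly potentiated by intracellular calcium. The gene is X-linked, on the reverse strand of chromosome X from 144381671 to 144688180, and all mice were male. The genes *Trpc5os*, *Gm15071* and *Mageb16-ps1* have exons within its span, none of which overlap an exon of *Trpc5*. Its FPKM was 19.1, 20.2, 20 and 20 in the dorsal libraries headed D1, V1, D2 and V2. In the ventral libraries headed D3, V3, D4 and V4 it was 14.9, 16.8, 17.0 and 14.8. The dorsal libraries lay close together, while the ventral ones fell into a higher and a lower pair, and the regions were 2.06 FPKM apart at their nearest. Mean expression was 19.8 ± 0.501 FPKM (SD, n = 4) dorsally and 15.9 ± 1.21 FPKM (SD, n = 4) ventrally, 1.25-fold more in dorsal MEC. The log2 fold change was −0.30 (standard error 0.07, 95% interval −0.45 to −0.16, adjusted p = 0.0336, limma). The direction was the same in 8 of 8 fits without 1 library, but the call was kept in 2 of them, those without the ventral libraries headed V3 and D4. Without D1, V1, D2, V2, D3 or V4 the adjusted p from limma rose above the threshold, to at most 0.110, and when total FPKM was set equal in all libraries it was 0.141.

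Promoter windows of both genes are shown here. They run from 250 to 51 bases before the RefSeq transcription start, on the gene's strand and 5′ to 3′, and are printed because these genes carry the regional differences of opposite sign. CG dinucleotides are in capitals. The window of *Trpc4* is chr3:54155807-54156006 (forward strand) and that of *Trpc5* is chrX:144688231-144688430 (reverse strand), both from RefSeq on GRCm38.p6.
Trpc4: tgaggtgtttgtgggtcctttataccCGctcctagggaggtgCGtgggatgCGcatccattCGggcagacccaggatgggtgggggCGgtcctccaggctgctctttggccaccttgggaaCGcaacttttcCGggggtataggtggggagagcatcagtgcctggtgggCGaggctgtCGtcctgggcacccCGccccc
Trpc5: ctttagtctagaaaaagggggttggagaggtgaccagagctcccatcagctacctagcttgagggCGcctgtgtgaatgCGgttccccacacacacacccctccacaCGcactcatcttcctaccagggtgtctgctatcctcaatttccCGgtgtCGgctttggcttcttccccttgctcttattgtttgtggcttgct

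The *Trpc4* window held 10 CG dinucleotides and 64.5% G or C, against 5 and 54.0% for *Trpc5*, where the median over 32851 promoter windows of this length was 4 and 51.5%. *Trpc1* and *Trpc6* also had 10 CG dinucleotides. The *Trpc7* window had 0, but it overlaps an exon and lies mostly within the gene as GENCODE M21 draws it, so it is not upstream sequence there. Searched on both strands, the letters GGGCGG, to which Sp1 family factors bind, occurred 2 times in the *Trpc4* window, 1 time in that of *Trpc1* and 0 times in the others, beside 24.6% of all windows with at least 1. TATAAA occurred in the *Trpc4* window and in 9.14% of all windows. CACGTG and TGACGTCA, held by 4.34% and 0.828% of all windows, were in 0 of the 5. GGGCGG contains a CG dinucleotide, so these counts overlap. Such matches describe the sequence and say nothing of binding.

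*Trpc4* and *Trpc5* changed in opposite directions, so the makeup of the family was also described. Summed over the 5 genes, FPKM was 42.7 ± 1.25 (SD, n = 4) dorsally and 40.9 ± 1.37 (SD, n = 4) ventrally, with ranges of 41.6 to 44.1 and 39.6 to 42.4 that overlap. *Trpc5* made up 46.4 ± 1.18% (SD, n = 4) of this sum dorsally and 38.9 ± 1.71% (SD, n = 4) ventrally. The share of *Trpc4* was 16.0 ± 0.377% (SD, n = 4) dorsally and 22.8 ± 1.38% (SD, n = 4) ventrally, while *Trpc1* held 32.4 ± 1.28% and 31.2 ± 1.97% (SD, n = 4 each). Within a library, the FPKM of *Trpc5* was 2.88, 3.01, 2.98 and 2.76 times that of *Trpc4* in the dorsal libraries headed D1, V1, D2 and V2. It was 1.51, 1.82, 1.83 and 1.70 times that of *Trpc4* in the ventral libraries headed D3, V3, D4 and V4. Values from a single library do not depend on the scaling between libraries. The dorsal and ventral ratios did not overlap, but this was fixed in advance. Neither gene overlapped between regions, and the 2 genes differed in opposite directions. Sums, shares and ratios over genes chosen with their values known are given as a description, with no test.

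**Figure D2:**
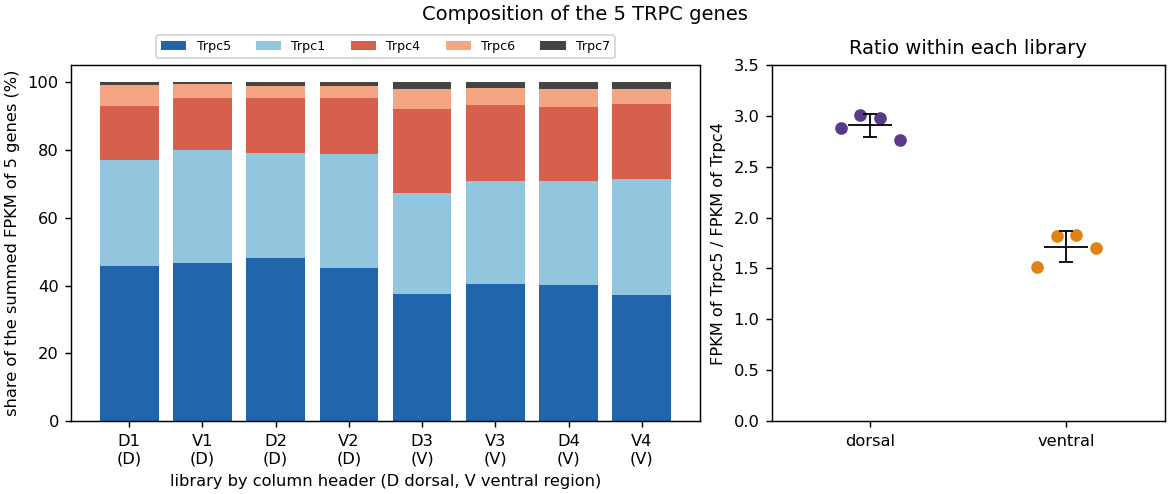
Left, share (%) of each gene in the summed FPKM of the 5 TRPC genes, 1 bar per library under its column header, with the region in parentheses. Right, FPKM of Trpc5 divided by that of Trpc4 in each library (points), with the mean and SD of a region. The ratio lay between 2.76 and 3.01 in the 4 dorsal libraries and between 1.51 and 1.83 in the 4 ventral ones.

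*Trpc1* (ENSMUSG00000032839), on chromosome 9 from 95705082 to 95750375, had 13.0, 14.4, 13.0 and 14.8 FPKM in the dorsal libraries headed D1, V1, D2 and V2. In the ventral libraries headed D3, V3, D4 and V4 it had 11.9, 12.6, 13.0 and 13.5. The regions overlapped. The means of 13.8 ± 0.957 and 12.7 ± 0.681 FPKM (SD, n = 4 each) gave a log2 fold change of −0.11, with a 95% interval of −0.27 to 0.05 (adjusted p = 0.509, limma).

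*Trpc6* (ENSMUSG00000031997), also on chromosome 9, from 8544142 to 8680741, was the most variable of the 5 genes in dorsal MEC, with a coefficient of variation of 25.8%. Its FPKM was 2.51, 1.70, 1.46 and 1.60 in the dorsal libraries headed D1, V1, D2 and V2. It was 2.32, 2.13, 2.22 and 1.74 in the ventral libraries headed D3, V3, D4 and V4. The dorsal library D1 had the highest value of all 8, and the other 3 dorsal libraries had the lowest 3. The log2 fold change was 0.15, with a 95% interval of −0.14 to 0.43 (adjusted p = 0.650, limma), and without D1 it was 0.26 (adjusted p = 0.333, limma).

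*Trpc7* (ENSMUSG00000021541), on chromosome 13 from 56773113 to 56895993, is the closest relative of *Trpc6*. Its FPKM was 0.441, 0.325, 0.472 and 0.433 in the dorsal libraries headed D1, V1, D2 and V2. In the ventral libraries headed D3, V3, D4 and V4 it was 0.801, 0.759, 0.899 and 0.908. Every ventral library exceeded every dorsal one, with means of 0.418 ± 0.0642 and 0.842 ± 0.0736 FPKM (SD, n = 4 each), a ratio of ventral to dorsal of 2.02. This is the largest ratio of the 5 genes and rests on the lowest level. With its mean under 1 FPKM the gene did not enter the test. When the FPKM limit was dropped, 3.44% of 14989 genes were called and *Trpc7* was not, with an adjusted p of 0.0594 (limma) and a log2 fold change of 0.38 on log2(FPKM + 1), a scale that understates changes at low levels. An exact two-sided permutation test over the 8 libraries gave an unadjusted p = 0.0286 for *Trpc7*, as it did for *Trpc4* and *Trpc5*. This is the smallest p that 4 against 4 libraries allow, and any gene whose regions do not overlap reaches it. It therefore adds nothing to the absence of overlap, which 11.1% of the 14989 genes showed with no FPKM limit. The same exact test gave p = 0.143 for *Trpc1* and p = 0.343 for *Trpc6*.

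The genes whose profile over the 8 libraries was closest to each called member were found by the mean absolute difference in log2(FPKM + 1), after each gene was centred on its own mean. Closest to *Trpc4* was *Adcy5*, an adenylyl cyclase, with a mean absolute difference of 0.0262 and a mean of 8.05 FPKM dorsally and 10.9 ventrally. It was followed by *Kcnk10*, a two-pore potassium channel (difference 0.0321), and *Zmym3*, a zinc finger protein (0.0348). Closest to *Trpc5* were *Fhod3*, a formin that acts on actin (difference 0.0387), *Ppm1l*, a protein phosphatase (0.0389), and *Myo5a*, a myosin motor (0.0425). *Adcy5*, *Zmym3* and *Ppm1l* were themselves called. All were picked for likeness to a called member over the same libraries, so these calls are no separate result.

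Genes of the pathways around TRPC channels, together with TRP channels outside the TRPC family, were described from 6 lists of 90 genes. Of these, 69 were tested and 7 (10.1%) were called, 5 as V>D and 2 as D>V, beside 3.6% of all genes. The lists were put together with earlier results of these data known, and nothing is drawn from this share. Of the 7 calls, 4 were among the 14 tested receptors that couple to Gq or, for *Ntrk2*, act through phospholipase Cγ, and 4 of these 4 were V>D. Of the 14 tested receptors, 9 had a log2 fold change above 0 and 5 below 0. Their median was 0.13, beside −0.01 for all genes tested. *Trhr*, the receptor for thyrotropin-releasing hormone, had 0.778 ± 0.204 FPKM dorsally and 5.08 ± 0.622 ventrally (SD, n = 4 each; adjusted p = 0.000156, limma). *Oxtr*, the oxytocin receptor, rose from 1.22 ± 0.155 to 3.73 ± 0.443 FPKM (SD, n = 4 each; adjusted p = 0.000510, limma). *Htr2c*, a serotonin receptor, had 2.18 and 3.18 FPKM (adjusted p = 0.0391, limma), and *P2ry1*, a receptor for ADP, had 0.916 and 1.77 FPKM (adjusted p = 0.0444, limma). The calls of *Trhr* and *Oxtr* were kept in 8 of 8 fits without 1 library, whereas that of *P2ry1* was kept in 2 and that of *Htr2c* in 1. *Htr2c* was also lost when total FPKM was set equal in all libraries, and *P2ry1* when genes with too few alignments were kept. The muscarinic receptors *Chrm1*, with 22.8 FPKM dorsally and 24.8 ventrally, and *Chrm3*, with 19.6 and 17.0, were not called (adjusted p = 0.474 and 0.260, limma). *Chrm5* lay under the FPKM limit, with means of 0.280 and 1.14 FPKM. *Grm5*, the most abundant of the listed receptors after *Ntrk2*, had 62.4 and 65.7 FPKM and was not called.

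**Figure D3:**
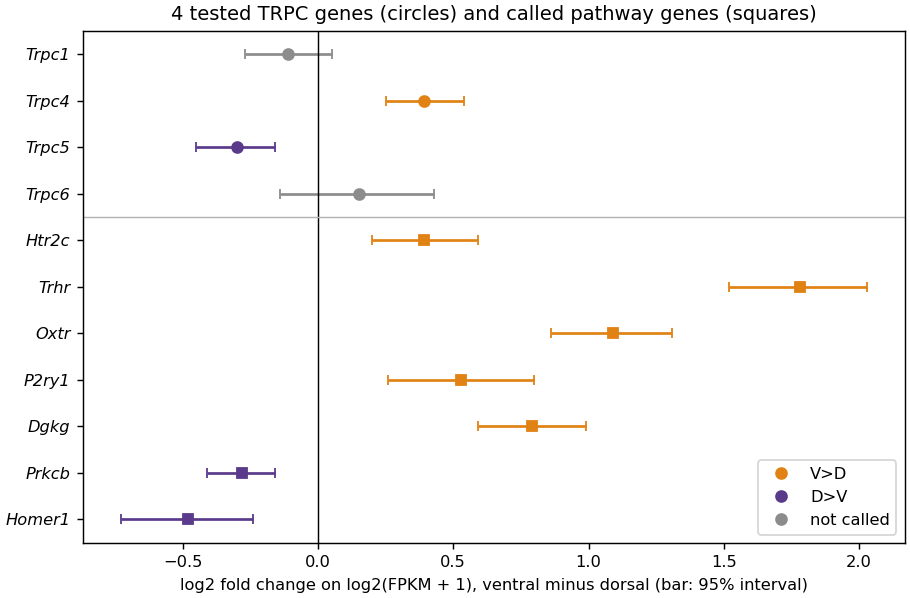
Log2 fold change of log2(FPKM + 1), ventral minus dorsal, with 95% intervals from limma, for the 4 tested TRPC genes (circles) and the 7 called genes of the pathway lists (squares). Orange marks V>D, purple D>V and grey genes that were not called. Trpc4 at 0.39 and Trpc5 at −0.30 lie on opposite sides of 0, and Trhr at 1.78 has the largest value shown.

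Of the 9 tested G proteins and phospholipases C, 0 were called by limma. *Plcb1*, with 109 FPKM dorsally and 88.9 ventrally, was the most abundant phospholipase, and its log2 fold change was −0.29 (adjusted p = 0.126, limma). Among the 15 tested enzymes of diacylglycerol and protein kinases C, 1 was V>D and 1 was D>V. *Dgkg*, a kinase that removes diacylglycerol by phosphorylating it, rose from 17.9 ± 1.82 to 31.6 ± 3.39 FPKM (SD, n = 4 each; adjusted p = 0.00162, limma) and was called in 8 of 8 fits without 1 library. *Prkcb*, a calcium-dependent protein kinase C, fell from 218 ± 3.89 to 179 ± 3.31 FPKM (SD, n = 4 each; adjusted p = 0.0182, limma), a call kept in 4 of 8 such fits and lost when total FPKM was set equal. Of the 7 tested genes of calcium stores and store-operated entry, which include the inositol trisphosphate receptor *Itpr1* and the sensors *Stim1* and *Stim2*, 0 were called. Among 15 tested binding partners, *Homer1*, a scaffold that links metabotropic glutamate receptors to TRPC channels and calcium stores, was D>V, with 40.6 ± 5.60 FPKM dorsally and 28.7 ± 3.35 ventrally (SD, n = 4 each; adjusted p = 0.0403, limma). Its call was kept in 2 of 8 fits without 1 library and was lost with total FPKM set equal, with quantile normalization, without the mean-variance trend and with genes of too few alignments kept. *Trpc4ap*, which encodes a protein that binds TRPC4, had 20.1 and 19.0 FPKM and was not called.

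Of 22 TRP channel genes outside the TRPC family, 9 reached the FPKM limit and 0 were called by limma. *Trpm7*, a channel with a kinase domain, was the highest, with 26.1 FPKM dorsally and 23.4 ventrally, followed by the lysosomal channel *Mcoln1* with 19.5 and 17.8. *Trpm4*, a calcium-activated cation channel that has also been linked to such currents, had means of 0.785 and 0.639 FPKM and *Trpm5*, its relative, 0.0890 and 0.0502, so that both lay below the limit. The summed FPKM of these 22 genes was 81.7 in dorsal and 76.2 in ventral MEC on average.

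**Figure D4:**
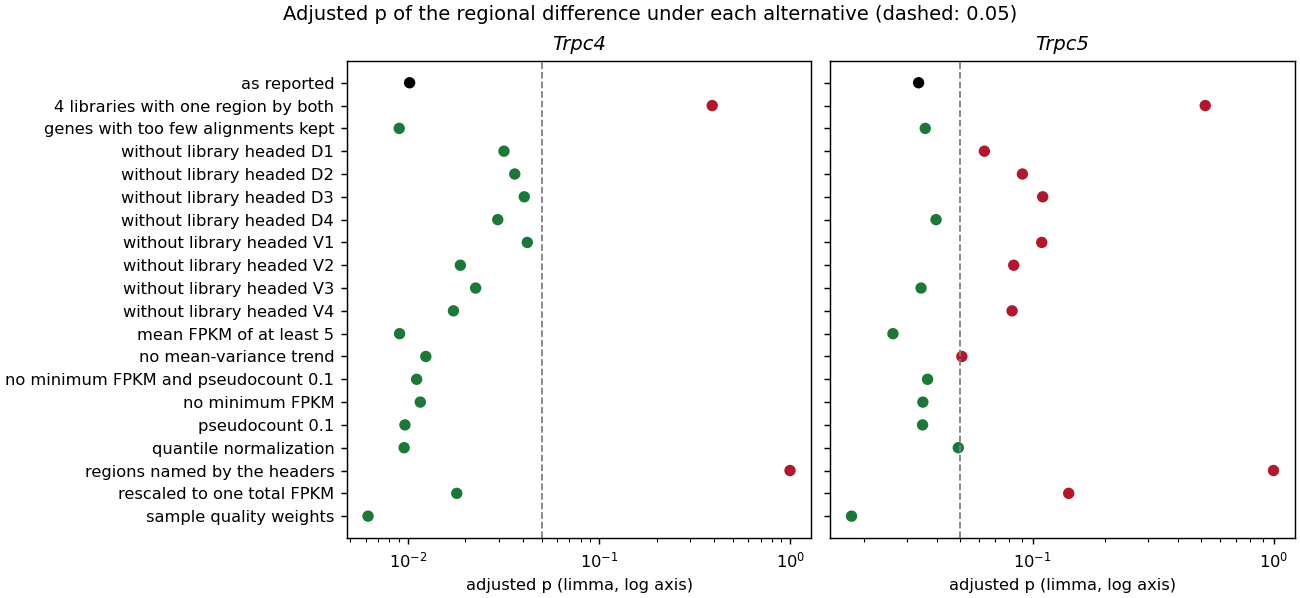
Adjusted p (log axis, limma) of the regional difference of Trpc4 and Trpc5 as reported (black) and under each alternative (green where the call was kept, red where it was lost or the direction changed). Trpc4 stayed below 0.05 in every fit that used the regions of the authors' table and at least 7 libraries, while Trpc5 rose above it in 6 of 8 fits without 1 library.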

How the data were processed

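Pooled MEC tissue of 4 groups of mice gave RNA with integrity numbers between 7.1 and 8.5, and cDNA was amplified from 120 ng per sample. Reads were aligned by the authors, using TopHat 2.0.8, to the Ensembl release 73 mouse genome (GRCm38) and computed gene-level FPKM with Cuffdiff 2, which also scales libraries to each other. The deposited FPKM table and the condition means of the authors' comparison table were used, the latter only to place columns in regions. Fold changes and p-values in that table are the authors' own comparison and were not used, nor were 4 columns of per-library fragments and FPKM, whose rows could not be matched to samples. Depth was therefore only estimated, relative to other libraries.

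An unpaired limma model (version 3.58.1, R 4.3.3) with a mean-variance trend was fitted to log2(FPKM + 1) of genes flagged as sufficiently aligned whose FPKM averaged 1 or more. Calls required an adjusted p under 0.05 together with regional means that differed by over 0.263 on the log2 scale. Alternatives covered the pseudocount, FPKM limit, scaling, trend, weights, region assignment and each library left out. The fit was tested on simulated data for 13674 genes, with the changed genes drawn from those above 5 FPKM. It recovered 69 of 100 genes changed by 0.5 and 93 of 100 changed by 1 on the log2 scale. It also called 9 unchanged genes, and 0 genes in a simulation without changes. The recovery does not cover genes at lower levels, such as *Trpc6*. Nor does it cover changes smaller than 0.5, such as those of *Trpc4* (0.39) and *Trpc5* (−0.30). Members and gene lists were chosen with earlier results of these data known. Some genes are not reported here and enter no count of the lists. Genes named are the members, called genes of the lists, the 3 genes with the profile closest to each called member, and others shown for their role. Promoter windows are from RefSeq (GRCm38.p6) and positions from GENCODE M21. Python 3.11.15, SciPy 1.17.1 and matplotlib 3.10.9 were used.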

Additional observations from a re-analysis of the deposited data

Results flagged for a closer look

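In dorsal MEC, the *Trpc4* value of the library headed V2, 7.26 FPKM, lay far from the other 3 dorsal libraries, which had between 6.62 and 6.72 FPKM. The gap made up 0.845 of the range of the group. It was the single value so marked among 24 groups of 4 libraries, where chance marks about 1 in 20. Without this library the log2 fold change of *Trpc4* was 0.42, with an adjusted p of 0.0188 (limma).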

How the results depend on the processing

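No paired analysis was possible because, although both regions came from the same groups of mice, neither the labels nor the columns tie a dorsal library to the ventral library of its group. *Trpc4* kept its call under 9 of 11 alternatives fitted with limma, beside the fits without 1 library, and *Trpc5* under 7 of 11. *Trpc5* was lost without the mean-variance trend (−0.30, adjusted p = 0.0508, limma) and when total FPKM was set equal in all libraries (−0.26, adjusted p = 0.141, limma). With the regions named by the headers, the log2 fold changes were −0.01 for *Trpc4*, 0.01 for *Trpc5*, 0.11 for *Trpc1*, −0.15 for *Trpc6*, −0.05 for *Htr2c*, −0.20 for *Trhr*, −0.01 for *Oxtr* and 0.04 for *Homer1*, and the log2 ratio of mean FPKM of *Trpc7* was −0.11. With the 4 libraries whose header and region match, they were 0.38 for *Trpc4* (adjusted p = 0.391, limma), −0.29 for *Trpc5* (adjusted p = 0.520, limma), 0.00 for *Trpc1* and −0.01 for *Trpc6*.

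Over all genes, 294 were called as D>V and 198 as V>D, a D>V share of 59.8%. With one total FPKM there were 195 and 201 (49.2% D>V), with the headers' regions 1 and 0 (721 genes at an unadjusted p under 0.05, limma), and with the 4 libraries 0 and 0 (1240 genes, limma). The median log2 fold change moved from −0.01 to 0.04 with one total FPKM. Without each library in turn the counts lay between 157 and 341 and between 91 and 191. The D>V count moved by over 1.5 times without V1 (157), D3 (163) and V2 (189), and the V>D count without V1 and D3 (91 each), D4 (121) and D2 (123). Of the pathway genes, 2 were D>V and 5 V>D. The D>V count was 1 with genes of too few alignments kept and with quantile normalization, and 0 with one total FPKM, with the headers' regions and with the 4 libraries. The V>D count was 1 at a mean FPKM of at least 5, where fewer genes were tested, and 0 with the headers' regions and with the 4 libraries. Without each library in turn they lay between 0 and 3 and between 3 and 5. For the members, those fits gave −0.14 to −0.08 for *Trpc1*, 0.37 to 0.42 for *Trpc4*, −0.34 to −0.27 for *Trpc5*, 0.09 to 0.26 for *Trpc6* and a ratio of 0.91 to 1.07 for *Trpc7*. Dropping the FPKM limit and adding 0.1 in place of 1, chosen after seeing the data, gave *Trpc7* 0.87 (adjusted p = 0.0767, limma). The causes were not tested. Values under 1 FPKM rest on few fragments, whose number is not known here.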
